A study of Mus musculus with 6 samples.

Results

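The genes described here carry glucose into the cell, break it down to lactate, or belong to the transcriptional response to low oxygen. They were listed by name for their known roles, at a time when earlier results of these data were known, and number 35 genes of the 54146 counted, of which 20 belong to glycolysis and its branch points and 15 to oxygen sensing and the hypoxia response. Their transcripts were counted from stranded sequencing of rRNA-depleted total RNA of NIH/3T3 cells, a line of mouse embryo fibroblasts labelled as Swiss albino in strain. The 3 groups were wild-type (WT) cells and Mki67-/- clones 1 and 2, whose knocked-out gene encodes Ki-67, a nuclear protein of dividing cells, with 2 libraries each. All groups were labelled as grown in high-glucose DMEM with pyruvate and serum, and the labels name no drug and no change of oxygen. Each knockout group is 1 clone, so what a clone carries beside the knockout cannot be told apart from the loss of Ki-67. How the knockout was made is not stated in the labels. Nor do they say that replicates were separate cultures, so p-values measure the spread between these libraries alone, and that spread may be technical.

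In glycolysis, glucose enters through transporters such as SLC2A1, is phosphorylated by hexokinase, and is split and oxidised to pyruvate, which lactate dehydrogenase converts to lactate. When oxygen is plentiful, prolyl hydroxylases encoded by Egln genes mark the HIF-1α and HIF-2α proteins for destruction, so HIF activity is set largely at the level of protein. When oxygen falls, HIF dimers bind short motifs near their target genes, among them many of the glycolytic genes, and raise their transcription.

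Libraries held 3873249 to 19678782 gene counts. The smallest, WT replicate 1, stood apart, the next being WT replicate 2 with 11377172, and values without it are given below where they change a call. Mki67 transcripts stood at 49.1 and 55.1 CPM in WT and at 4.24 to 7.69 CPM in the knockout libraries, with a log2 fold change of −3.35 (adjusted p = 1.12e-08). CPM are counts scaled to the TMM-adjusted library total. The fibroblast markers Col1a1, Col1a2, Col3a1, Vim, Pdgfra, Pdgfrb, Thy1 and Fn1 were all detected in every library, with 5 of the 8 called lower in the knockouts and Col1a1 called higher. The epithelial markers Epcam and Krt19 had 0 counts throughout and the other 5 of that list at most 0.543 CPM; the protocol text names 4T1, a mammary tumour line, whereas titles and sources name NIH/3T3. Of the endothelial, macrophage, skeletal muscle and adipocyte markers, 5 had enough counts to test: Csf1r (log2 2.17), Ttn (4.14) and Des (1.04) were called higher in the knockouts, Cdh5 was called lower (−1.82), and Cd68 (−0.23) was not called. Opposite-strand reads made up 46.8% of the counts at Csf1r and 58.1% at Ttn. Ptprc, Myh3 and Tie1, too low to test, were lower in every knockout library than in both WT libraries, and Myod1, Myog and Adgre1 had 0 counts. Their part in the results below was not tested, and in bulk RNA fewer cells of a type and less RNA per cell cannot be told apart.

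The motif searched for in the members' promoters was the core of the hypoxia response element, ACGTG or GCGTG, on both strands. Promoters are RefSeq windows in GRCm38.p6 of 300 bases, 250 before and 50 after an annotated start, and 32 of the 35 members had an entry. Ndrg1, Bnip3l and Epas1 had none, so their promoters were not searched. The windows of 4 members that were called in the knockouts, 2 lower and 2 higher, are shown, with that of Ldha, which held the most matches and was not called. Capitals mark every match on either strand, so that CACGT and CACGC are the reverse complements of the motifs.
Slc2a1: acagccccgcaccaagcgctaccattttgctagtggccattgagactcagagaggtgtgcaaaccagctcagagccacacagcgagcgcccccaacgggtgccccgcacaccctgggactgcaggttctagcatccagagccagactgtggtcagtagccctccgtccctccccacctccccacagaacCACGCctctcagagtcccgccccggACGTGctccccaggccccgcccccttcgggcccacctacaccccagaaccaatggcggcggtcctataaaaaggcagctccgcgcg
Pfkp: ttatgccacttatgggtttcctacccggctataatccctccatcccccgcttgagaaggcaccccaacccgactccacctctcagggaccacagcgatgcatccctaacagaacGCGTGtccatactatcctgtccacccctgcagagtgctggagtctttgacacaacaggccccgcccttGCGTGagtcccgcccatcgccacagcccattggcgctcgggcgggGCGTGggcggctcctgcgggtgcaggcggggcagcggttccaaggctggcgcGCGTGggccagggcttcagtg
Pgam1: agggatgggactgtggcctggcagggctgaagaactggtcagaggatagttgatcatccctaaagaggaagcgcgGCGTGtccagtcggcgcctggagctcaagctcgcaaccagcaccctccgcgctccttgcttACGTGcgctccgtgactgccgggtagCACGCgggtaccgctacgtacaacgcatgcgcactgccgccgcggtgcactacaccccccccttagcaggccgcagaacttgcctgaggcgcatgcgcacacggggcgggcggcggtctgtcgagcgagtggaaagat
P4ha2: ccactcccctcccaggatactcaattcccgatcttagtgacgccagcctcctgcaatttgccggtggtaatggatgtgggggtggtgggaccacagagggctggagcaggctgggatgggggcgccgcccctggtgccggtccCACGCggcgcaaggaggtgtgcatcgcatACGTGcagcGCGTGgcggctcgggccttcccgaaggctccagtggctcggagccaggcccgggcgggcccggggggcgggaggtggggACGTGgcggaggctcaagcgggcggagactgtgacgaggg
Ldha: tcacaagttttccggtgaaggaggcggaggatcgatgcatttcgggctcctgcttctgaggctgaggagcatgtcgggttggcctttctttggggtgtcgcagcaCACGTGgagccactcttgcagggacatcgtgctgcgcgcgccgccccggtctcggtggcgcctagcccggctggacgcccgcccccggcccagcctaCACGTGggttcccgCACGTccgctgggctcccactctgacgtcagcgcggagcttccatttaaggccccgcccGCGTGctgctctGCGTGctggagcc
The windows lie at chr4:119108495-119108794 (plus strand) for Slc2a1, chr13:6648722-6649021 (minus strand) for Pfkp, chr19:41911621-41911920 (plus strand) for Pgam1, chr11:54100674-54100973 (plus strand) for P4ha2 and chr7:46845554-46845853 (plus strand) for Ldha.

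At least 1 match stood in a promoter of 29 of the 32 members (90.6%), against 46.7% of all 27025 genes in the table and 68.3% of the 9408 tested genes with an entry. The form ACGTG alone stood in 23 members (71.9%), against 21.8% of all genes and 29.6% of tested genes. Members were listed for known roles in glycolysis and the low-oxygen response, so these shares describe the list and are not a result of the knockouts. The 32 include Car9, which was not tested. Members had 48 windows for 32 genes, since a gene with several starts has several windows. Tested genes had 12029 windows for 9408 genes, and all genes 32851 for 27025. A gene counted when any of its windows held a match, so genes with more windows had more room for one. The Pfkp window held 4 matches, all of the GCGTG form, and the P4ha2 window held 4, of which 2 were ACGTG; Pfkp was lower and P4ha2 higher in the knockouts. The Ldha window held 7 matches and those of Gpi1, Tpi1 and Eno2 held 0. A stretch CACGTG reads as ACGTG on both strands and counted as 2 matches, as it did in the Ldha window. A match is a run of letters in a window, and no binding was measured.

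Across the 35 genes the knockouts showed no common shift: some glycolytic and hypoxia-response transcripts were lower, some higher, and most did not pass the test. Of the 33 members with enough counts to test, 5 were called higher and 6 lower in the mean of both clones against WT (edgeR quasi-likelihood test, Benjamini-Hochberg adjusted p below 0.05 over 13120 genes). That is 33.3% of the members, beside 34.8% of all genes tested, so the share of members called was at the background. The median log2 fold change was 0.00 over the members and 0.00 over all genes tested. The glycolysis genes had 1 called higher and 5 lower of 20, and the hypoxia-response genes 4 higher and 1 lower of 13, beside 16.6% higher and 18.2% lower over all genes. Lower in the knockouts were the glucose transporter Slc2a1, Gpi1, Pfkp, both enolases Eno1 and Eno2, and the stress gene Ndrg1. Higher were Pgam1, Bnip3l, the collagen prolyl hydroxylases P4ha1 and P4ha2, and Hif1a.

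**Figure D1:**
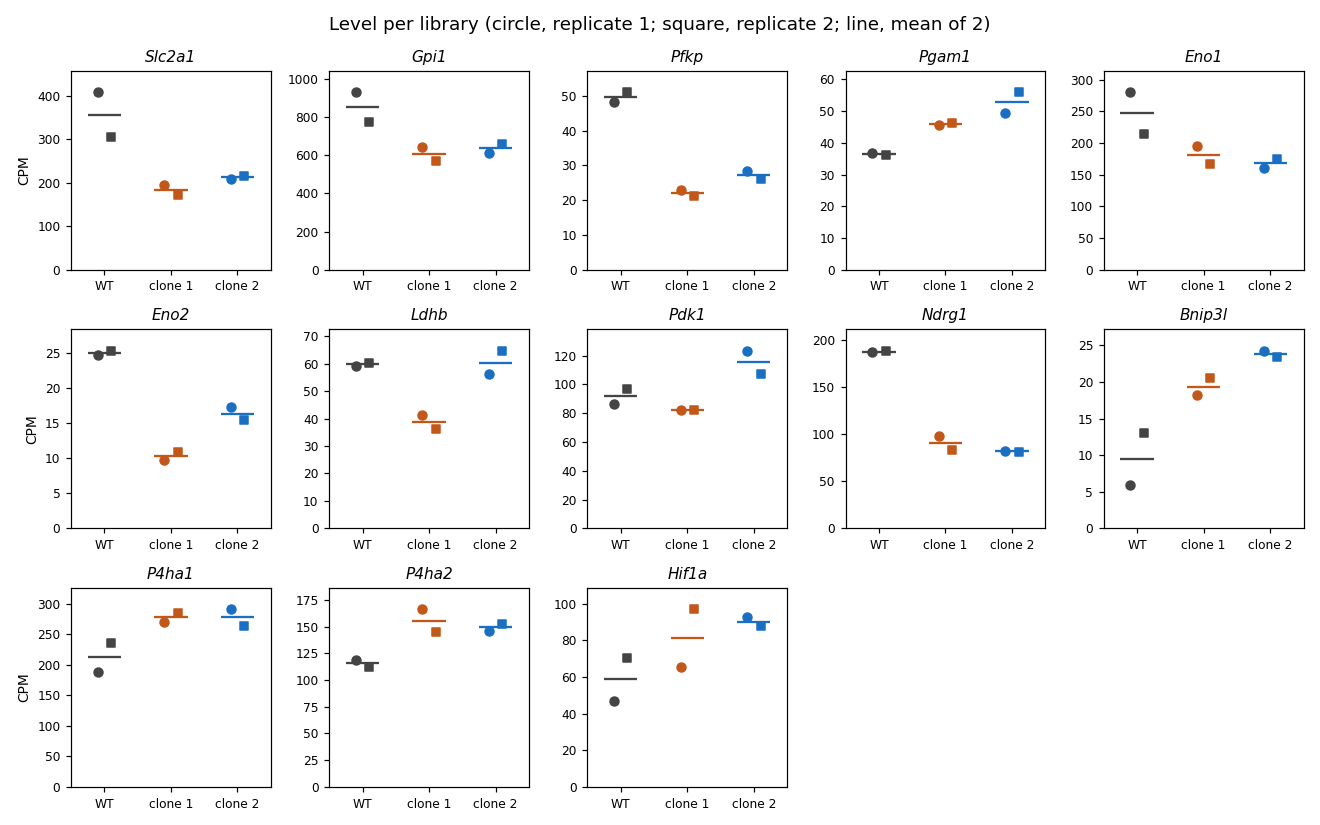
Level of the members called in the mean of both clones or between clones, in CPM (y axis, from 0, scaled to each gene), in the 2 libraries of WT, clone 1 and clone 2 (x axis); each point is a library and each line a group mean. Slc2a1, Pfkp, Eno2 and Ndrg1 lie lower in all 4 knockout libraries than in both WT libraries, whereas Ldhb is low in clone 1 alone.

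Slc2a1 (ENSMUSG00000028645, chromosome 4, 119108711 to 119137983, GRCm38, plus strand) encodes the main glucose transporter of fibroblasts. It stood at 408 and 305 CPM in WT, at 196 and 172 in clone 1 and at 209 and 216 in clone 2. All knockout libraries were below both WT libraries, and the gap between the WT libraries was wider than the spread of the 4 knockout libraries. The log2 fold change of the clone mean was −0.85 (SE 0.13, adjusted p = 1.89e-04). Without the shallow WT replicate 1 it was −0.63 and still called.

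At the next steps the hexokinases Hk1 and Hk2, which trap glucose in the cell as its phosphate, were not called in the mean contrast. Hk1 spanned 124 to 146 CPM over the 6 libraries. Hk2 stood at 85.2 and 79.7 CPM in WT, at 61.8 and 58.8 in clone 1 and at 80.8 and 68.9 in clone 2, with a call in clone 1 (log2 fold change −0.45, adjusted p = 0.0199) that ended without either clone 1 library (−0.48 and −0.42). The difference of Hk2 between the clones did not pass (log2 0.31, adjusted p = 0.245). Gpi1, which turns glucose phosphate into fructose phosphate, stood at 930 and 771 CPM in WT, at 644 and 567 in clone 1 and at 612 and 660 in clone 2. Its log2 fold change was −0.45 (SE 0.12, adjusted p = 0.0108), and the call ended when WT replicate 1 was left out (−0.32, adjusted p = 0.0712) and when clone 2 replicate 1 was (−0.44, adjusted p = 0.0605).

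The 3 subunit genes of phosphofructokinase, the committing step of glycolysis, did not move alike. Pfkp (ENSMUSG00000021196, chromosome 13, 6579768 to 6648777, minus strand), the platelet-type subunit, stood at 48.3 and 51.1 CPM in WT, at 23.0 and 21.1 in clone 1 and at 28.3 and 26.2 in clone 2. Every knockout library was below both WT libraries, with close replicates. The log2 fold change was −1.02 (SE 0.12, adjusted p = 3.12e-05), and it was called in each clone (−1.18 and −0.87). The liver-type Pfkl and muscle-type Pfkm were not called, at log2 fold changes of 0.24 (adjusted p = 0.162) and 0.29 (adjusted p = 0.0628). Pfkl ran from 421 to 600 CPM and Pfkm from 92.5 to 122 CPM. Pfkfb3, whose product makes an allosteric activator of phosphofructokinase, stood at 7.94 CPM ± 0.871 (SD, n = 2) in WT, 10.7 ± 0.419 in clone 1 and 9.43 ± 0.531 in clone 2 and was not called.

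Put per kilobase of annotated exon, Pfkp made up 3.59% ± 0.565 (SD, n = 2) of the 3 phosphofructokinase transcripts in WT. In the knockouts it made up 1.51% ± 0.190 (SD over 4 libraries of 2 clones). The ranges did not overlap, the knockout libraries reaching 1.78% and the WT libraries starting at 3.19%. The annotated exons of a gene cover all its transcripts, and came to 13401 bases for Pfkp, 6675 for Pfkl and 3340 for Pfkm. The coding transcript with the longest coding sequence has 4145, 3730 and 2879 bases, so the level of the Pfkp share depends on this divisor. Pfkl supplied most of the transcripts in both, at 69.1% ± 4.47 in WT and 70.2% ± 0.815 in the knockouts. The share of Hk2 in the 2 hexokinase transcripts was 48.0% ± 2.22 in WT and 40.6% ± 3.57 in the knockouts. By library it was 49.5% and 46.4% in WT, 37.7% and 38.3% in clone 1 and 45.5% and 40.9% in clone 2. An exact two-sided permutation test of 4 against 2 libraries has 15 arrangements, and p = 0.133, the smallest it can give, was reached by both shares (adjusted p = 0.293 over 11 shares of 5 steps). The test takes the 4 knockout libraries as exchangeable, although they come from 2 clones, so no conclusion is drawn from it. Shares were computed only for steps whose transcripts have little or no near-identical copy among the annotated transcripts of other genes.

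The aldolase, triose phosphate isomerase, Gapdh and Pgk1 steps were not called in the knockout mean or in either clone. Aldoa, the main aldolase of these cells, ran from 1637 to 2380 CPM and Tpi1, the isomerase of the 2 triose phosphates, from 1089 to 1524 CPM. Aldoc, the brain-type aldolase, was near the detection floor at 0.439 to 1.09 CPM. Gapdh, the oxidising step, was counted at only 53.6 to 81.7 CPM, and 88.0% of its transcript has a copy of at least 95% identity in 81 other annotated genes, 76 of them pseudogenes. The counting leaves out reads that map to several places, so that value is of the unique part of Gapdh. Pgk1, which yields the first ATP of the pathway, ran from 83.2 to 121 CPM and shares 68.8% of its transcript with copies.

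Pgam1, the phosphoglycerate mutase, was the 1 glycolysis gene called higher. It stood at 36.6 and 36.1 CPM in WT, at 45.6 and 46.2 in clone 1 and at 49.5 and 55.9 in clone 2. The 4 knockout libraries were all above both WT libraries, with a log2 fold change of 0.44 (SE 0.12, adjusted p = 0.0148). Of its transcript 43.1% lies in copies, and the call ended when WT replicate 2 was left out (0.43, adjusted p = 0.0567) and when clone 2 replicate 2 was (0.38, adjusted p = 0.0741).

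Both enolase genes, which make phosphoenolpyruvate, were lower in the knockouts. Eno2 (ENSMUSG00000004267, chromosome 6, 124760053 to 124769673, minus strand), known as the neuronal enolase, stood at 24.7 and 25.3 CPM in WT, at 9.69 and 10.9 in clone 1 and at 17.3 and 15.4 in clone 2. The 3 groups did not overlap, with clone 2 between clone 1 and WT. The log2 fold change of Eno2 was −0.95 (SE 0.14, adjusted p = 2.25e-04). Eno1, the common form, stood at 281 and 214 CPM in WT, at 195 and 168 in clone 1 and at 161 and 175.3 in clone 2. Its log2 fold change was −0.50 (SE 0.13, adjusted p = 0.00817), a call that ended when WT replicate 1 was left out (−0.29, adjusted p = 0.0902). Copies, among them the nearly identical Eno1b, cover 85.6% of the Eno1 transcript, whereas Eno2 has none.

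The last steps were not called in the mean of both clones. Pkm, the pyruvate kinase, was the most abundant member at 3007 to 3870 CPM, with a log2 fold change of 0.00. Ldha, which makes lactate, ran from 1848 to 2759 CPM, with the lowest value in WT replicate 2 and the next lowest in clone 1. Pdk1, the mitochondrial kinase that inhibits pyruvate dehydrogenase, ran from 82.1 to 124 CPM. Per kilobase, Pkm, Ldha, Aldoa and Tpi1 led in WT at 688, 668, 644 and 490 RPKM (CPM per kilobase of annotated exon), followed by Gpi1 at 132 and Slc2a1 at 102. Pkm, Ldha and Gpi1 have over 50% of their transcript in copies, so their levels are of the unique parts.

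Among the hypoxia-response genes, Ndrg1 had the largest fall of the 33 tested members in the mean contrast, although Pfkp fell further (−1.19) once trends with GC content and length were removed. Ndrg1 (ENSMUSG00000005125, chromosome 15, 66929318 to 66969640, minus strand) encodes a stress- and hypoxia-induced protein linked to growth arrest and differentiation. It stood at 187 and 189 CPM in WT, at 97.9 and 83.4 in clone 1 and at 82.7 and 80.9 in clone 2. All knockout libraries were near one another and far below WT. The log2 fold change was −1.13 (SE 0.11, adjusted p = 3.60e-06), with −1.05 in clone 1 and −1.20 in clone 2.

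Bnip3l (ENSMUSG00000022051, chromosome 14, 66985239 to 67008877, minus strand), which marks mitochondria for removal, had the largest rise of the tested members in the mean contrast. It stood at 5.97 and 13.0 CPM in WT, at 18.2 and 20.5 in clone 1 and at 24.3 and 23.4 in clone 2. Every knockout library was above both WT libraries, and the WT libraries differed from each other more than those of either clone. The log2 fold change was 1.04 (SE 0.21, adjusted p = 0.00213), but 0.73 without WT replicate 1 and 1.85 without WT replicate 2, still called in both. Copies cover 34.7% of the Bnip3l transcript. Its relative Bnip3, with copies over 94.2% of its transcript, was not called and ran from 16.3 to 25.8 CPM.

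The collagen prolyl hydroxylase subunits P4ha1 and P4ha2, which stabilise collagen and are induced by HIF, were both higher. P4ha1 stood at 189 and 236 CPM in WT, at 270 and 285 in clone 1 and at 291 and 264 in clone 2 (log2 fold change 0.38, SE 0.12, adjusted p = 0.0260). P4ha2 stood at 119 and 113 CPM in WT, at 167 and 145 in clone 1 and at 146 and 153 in clone 2 (log2 fold change 0.40, SE 0.11, adjusted p = 0.0151). For both genes all 4 knockout libraries were above both WT libraries. Both calls ended in some fits with 1 library left out, although both genes stayed higher in the knockouts in those fits. P4ha1 lost its call when WT replicate 1 (0.23), clone 1 replicate 2 (0.35), clone 2 replicate 1 (0.34) or clone 2 replicate 2 (0.41) was left out, with adjusted p from 0.0539 to 0.217, and when trends with GC content and length were removed (0.21, adjusted p = 0.0775). P4ha2 lost it when WT replicate 2 (0.36), clone 1 replicate 1 (0.34) or clone 2 replicate 2 (0.37) was left out, with adjusted p from 0.0513 to 0.0668. Their balance was level, P4ha2 making up 26.6% per kilobase of exon in both WT and knockouts.

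Hif1a (ENSMUSG00000021109, chromosome 12, 73901375 to 73947530, plus strand), the oxygen-regulated subunit of HIF, stood at 46.9 and 70.3 CPM in WT, at 65.4 and 97.0 in clone 1 and at 92.7 and 87.5 in clone 2. The groups overlapped, since clone 1 replicate 1 lay below WT replicate 2. The log2 fold change was 0.51 (SE 0.17, adjusted p = 0.0343). The call ended when WT replicate 1 (0.28), clone 1 replicate 2 (0.35) or clone 2 replicate 1 (0.49) was left out, with adjusted p from 0.0704 to 0.127, and the value was 0.11 (adjusted p = 0.493) once trends with GC content and length were removed from each library. With the clones fitted as 1 group it was 0.52 (adjusted p = 0.0663). Epas1, the gene of HIF-2α, had 0 counts in all 6 libraries. In the deepest library, a count of 0 allows a level of up to 0.151 CPM.

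The remaining oxygen-sensing and response genes did not pass in any contrast. The oxygen-sensing hydroxylases Egln1 and Egln3 ran from 51.7 to 61.0 CPM and from 28.3 to 35.8 CPM. Vegfa, the angiogenic growth factor, ran from 63.4 to 97.4 CPM, with WT replicate 2 highest and WT replicate 1 among the low values. The histone demethylase gene Kdm3a ran from 27.9 to 43.4 CPM, the disulfide oxidase gene Ero1l from 40.2 to 50.6 CPM, the mitochondrial Higd1a from 26.3 to 40.7 CPM, and Ankrd37 from 2.76 to 5.97 CPM. Car9, a surface carbonic anhydrase widely used as a hypoxia marker, had 1 count in each WT library and 0 in all knockout libraries, too few to test.

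The clones were each compared with the same WT libraries, so these 2 comparisons are not independent. In clone 1, 3 members rose and 8 fell, 33.3% of the members tested beside 31.7% of all genes, of which 15.2% were higher and 16.5% lower. In clone 2, 4 were higher and 6 lower, 30.3% beside 27.4% of all genes, of which 12.9% were higher and 14.5% lower. Both shares were near the background. Leaving out either library of a clone left fewer members called in the comparison of that clone with WT. The share of all genes called fell as well. Called in both clones were 2 higher members, Bnip3l and P4ha2 (6.06% of members, beside 9.57% of all genes). So were 6 lower members, Slc2a1, Gpi1, Pfkp, Eno1, Eno2 and Ndrg1 (18.2%, beside 11.2%). Gpi1 in clone 2 and Eno1 in clone 1 lost their calls with no scaling beyond library totals. They also lost them once trends with GC content and length were removed, as did Eno1 in clone 2. When WT replicate 1 was left out, Gpi1 and Eno1 lost their calls in both clones. Of the 33 tested members, 7 had every knockout library above both WT libraries and 10 had every knockout library below them, beside 25.1% and 24.7% of all genes; 16 overlapped.

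**Figure D2:**
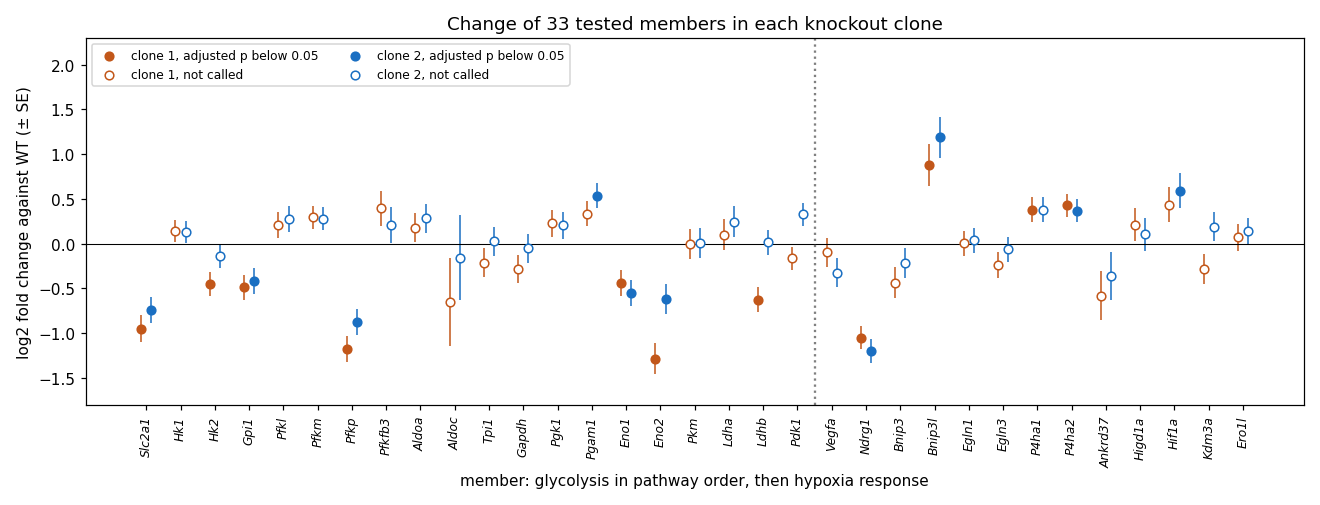
Log2 fold change against WT of each tested member (x axis, glycolysis in pathway order and then the hypoxia response) in clone 1 and clone 2 (y axis), with bars of 1 SE; filled points passed the test at an adjusted p below 0.05 and open points did not. The lowest points are Eno2 in clone 1 (−1.28) and Ndrg1 in clone 2 (−1.20), the highest is Bnip3l in clone 2 (1.19), and both clones are compared with the same 2 WT libraries.

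The clones differed from each other in 3 members (9.09%, beside 3.54% of all genes), all higher in clone 2, where 1.18% of all genes were higher and 2.36% lower. All 3 are glycolysis genes. Eno2 was higher in clone 2 by 0.67 log2 (SE 0.16, adjusted p = 0.0355). Ldhb (ENSMUSG00000030246, chromosome 6, 142490249 to 142507957, minus strand), the lactate dehydrogenase subunit typical of heart, stood at 59.2 and 60.4 CPM in WT, at 41.2 and 36.3 in clone 1 and at 56.1 and 64.7 in clone 2. It was lower than WT in clone 1 (log2 −0.62, adjusted p = 0.00426; −0.54 and not called without clone 1 replicate 2), and in clone 2 the difference from WT was 0.01 (SE 0.14, adjusted p = 0.954). The difference between clones was 0.64 (SE 0.14, adjusted p = 0.0159), with 76.8% of the Ldhb transcript in copies. Pdk1 (ENSMUSG00000006494, chromosome 2, 71873224 to 71903858, plus strand) stood at 86.3 and 97.1 CPM in WT, at 82.1 and 82.3 in clone 1 and at 124 and 108 in clone 2, WT lying between the clones. It differed between clones by 0.49 (SE 0.13, adjusted p = 0.0478) and was called against WT in neither. The Pdk1 call between clones ended with DESeq2 size factors in edgeR and with no scaling beyond library totals. It also ended with a minimum count of 50 and with counts thinned to the smallest library. That of Eno2 ended with no scaling, with the DESeq2 test and with thinned counts, and that of Ldhb with thinned counts. No member was called between clones when any 1 of the 4 clone libraries was left out, and the share of all genes called fell as well.

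The abundant glycolytic transcripts also differed between the WT libraries. The 5 glycolysis members above 500 CPM in WT, Gpi1, Aldoa, Tpi1, Pkm and Ldha, were all higher in the shallow replicate 1, by 0.27 to 0.48 log2. Bnip3l, Hif1a and Vegfa were lower there, by −1.12, −0.58 and −0.49 log2. Across the 33 tested members, the replicate 1 to replicate 2 log2 ratio was set beside the GC content of each gene's longest annotated transcript. Pearson's r was 0.63 in WT, 0.42 in clone 1 and −0.43 in clone 2, as a description over genes of the same libraries. Glycolysis members together took 1.24% and 0.985% of gene counts in WT and 1.10% to 1.29% in the knockouts. Without WT replicate 1 more members were called higher than lower, whereas without WT replicate 2 more were called lower than higher. Leaving out any 1 knockout library also left more members lower than higher. In each of these fits the share of all genes called was below the 34.8% of the full fit.

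**Figure D3:**
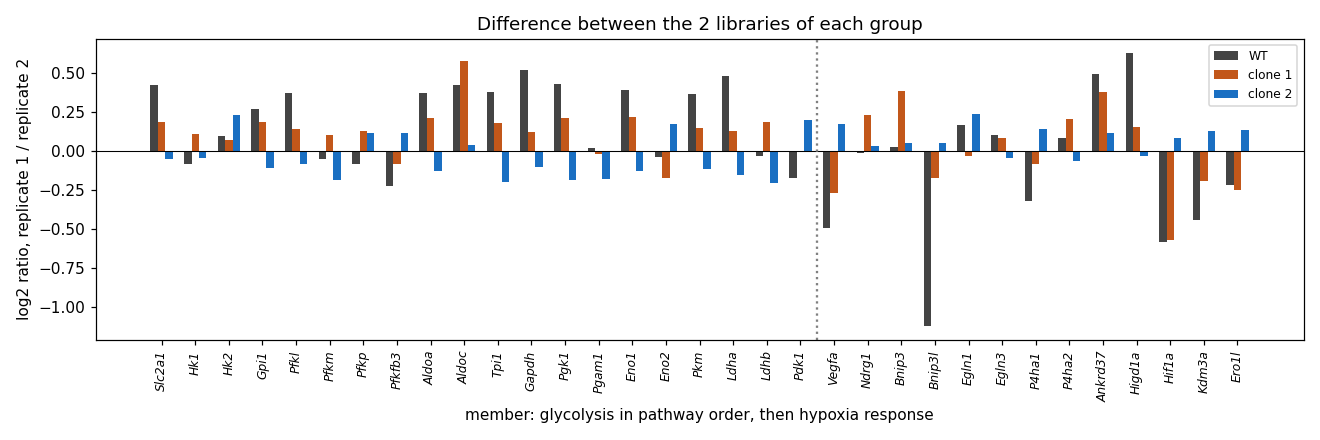
Log2 ratio of replicate 1 to replicate 2 (y axis) of the 33 tested members (x axis, glycolysis in pathway order and then the hypoxia response), with a bar each for WT, clone 1 and clone 2. Most glycolysis members have a WT bar above 0 (13 of 20), and Bnip3l has the lowest, at −1.12.

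The genes next to some members also had medians away from 0. For each member the median log2 fold change of the 20 nearest tested genes was taken, and over all tested genes such medians ran from −0.35 at the 10th percentile to 0.32 at the 90th. By definition 10% of all tested genes lie below that range and 10% above it. Of the 33 tested members 10 lay outside that range: Eno1 (−0.52), Bnip3 (−0.51), Ldha (−0.50), Hk2 (−0.44), Tpi1 (−0.38) and Slc2a1 (−0.36) below it, and Pgk1 (0.49), Pfkfb3 (0.43), Hif1a (0.42) and Pdk1 (0.39) above it. Of the 11 called members, 8 had the sign of their neighbours' median. That share was not computed over all called genes, so it has no background to stand beside. Around Pfkp (−0.19) and Ndrg1 (0.11) the medians were inside the range and far smaller than the change of the gene itself. All these medians are of the mean contrast. For clone 2 against clone 1, the neighbours' medians were 0.32 around Eno2, 0.17 around Ldhb and −0.06 around Pdk1, the members called between clones. In clone 1 against WT the median was −0.68 around Hk2, itself at −0.45, and −0.46 around Eno2, itself at −1.28. What the neighbourhood adds to these differences was not tested.

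Other genes of the pathways, from a list of 76, gave a similar picture, with 10 called higher and 13 lower of 57 tested (40.4%, beside 34.8% of all genes) and a median log2 fold change of −0.09. Among those higher were the collagen lysyl hydroxylase Plod2 (1.01), the bisphosphoglycerate mutase Bpgm (0.81) and the sterol-regulating protein Insig2 (0.78). Among those lower were Pdp1, the phosphatase that activates pyruvate dehydrogenase (−0.92), Tigar, a fructose bisphosphatase that slows glycolysis (−0.68), the glycoprotein hormone Stc2 (−0.66) and the histone demethylase Kdm4b (−0.63). Of these genes, Pdp1 lost its call when WT replicate 2 was left out (−0.63, adjusted p = 0.0741), and Tigar when the clones were fitted as 1 group (−0.65, adjusted p = 0.0715).

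The calls differed in how far they depended on single libraries and settings. Over 17 alternatives, 5 of the 11 called members kept their call in each: Slc2a1, Pfkp, Eno2, Ndrg1 and Bnip3l. Gpi1, Pgam1, Eno1, P4ha1, P4ha2 and Hif1a each lost it under at least 1. Of the 22 members not called, 11 were called under at least 1 alternative. Removing trends with GC content and length added Hk1 (0.32), Pfkl (0.44), Pfkm (0.43) and Aldoa (0.44) as higher, and Bnip3 (−0.59) and Ero1l (−0.27) as lower. Leaving out WT replicate 1 added Pfkl (0.44, from 0.24), Aldoa (0.42, from 0.23), Pgk1 (0.43, from 0.22), Ldha (0.43, from 0.17) and Higd1a (0.46, from 0.16) as higher and Vegfa (−0.42, from −0.21) as lower, with adjusted p from 0.0110 to 0.0294. Leaving out WT replicate 2 added Gapdh as lower (−0.42, from −0.17, adjusted p = 0.0249), and leaving out clone 1 replicate 1 added Bnip3 as lower (−0.43, from −0.32, adjusted p = 0.0334).

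**Figure D4:**
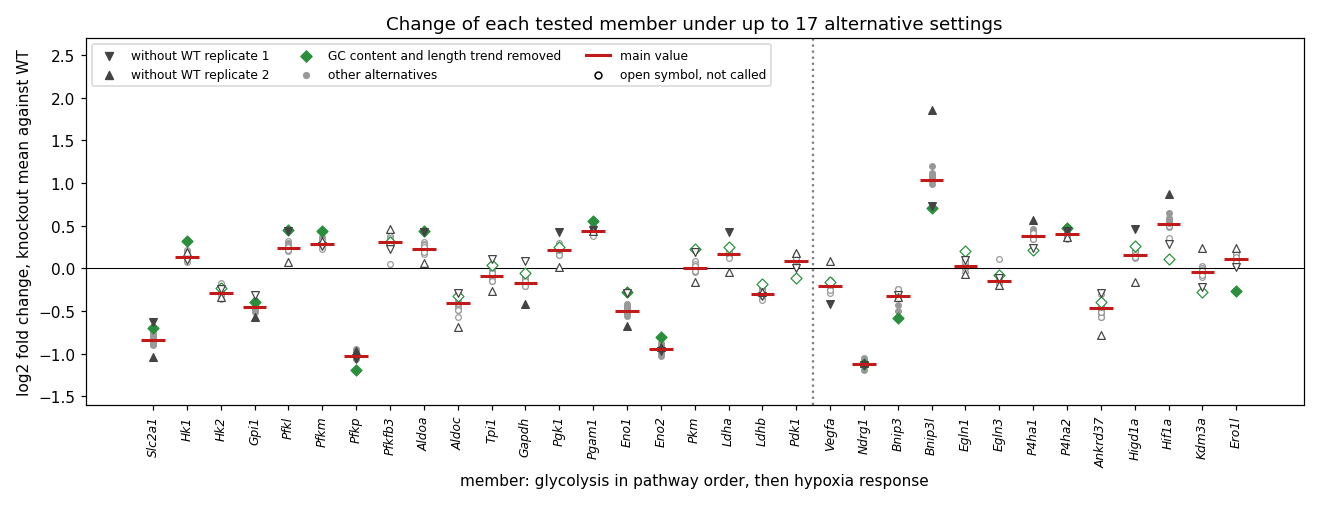
Log2 fold change of the mean of both clones against WT (y axis) for each tested member (x axis), as fitted (red line) and under up to 17 alternative settings (symbols); filled symbols had an adjusted p below 0.05. Slc2a1, Pfkp, Eno2 and Ndrg1 lie below 0 and Bnip3l above 0 with filled symbols throughout, and Bnip3l spans 0.70 to 1.85.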

How the data were processed

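The 6 deposited files hold raw read counts per Ensembl gene, which the authors made in the layout of STAR's gene counting; per the submitters' processing notes, the aligner was STAR 2.6.0c, the build GRCm38 and the quality viewer FastQC. The column for the reverse strand was used, since the kit named in the labels' protocols marks strand in that way. Reads assigned to no gene, 46.6% to 50.5% of each library, were left out of totals and tests. Multimapping reads, 28.3% to 30.3%, are among them, so genes with near-identical copies were measured by their unique parts. Names, exons and positions came from GENCODE M21, which matched 54079 of 54146 identifiers.

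Tests used edgeR 4.0.16 in R 4.3.3: filterByExpr with a minimum count of 10, TMM scaling, and quasi-likelihood fits to all 6 libraries by group, with 3 residual degrees of freedom. P-values were adjusted by Benjamini-Hochberg over 13120 genes, and a gene was called below 0.05. All adjusted p-values of genes come from this edgeR fit unless another setting is named. A floor of 3 counts equals 0.151 to 0.814 CPM and covers counting error only. Steps were tested on simulated data. A chi-square of replicate counts gave 12.1 to 21.3 per degree of freedom, above sampling noise.

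Copies were matches of at least 95% identity over at least 100 bases between a member's coding transcript and transcripts of other genes (BLAST 2.17.0). Shares of a step were computed where at most 10% of each transcript lay in copies. Up to 17 alternatives were run, with DESeq2 1.42.0 and limma 3.58.1 among the tools. Members and lists were chosen with earlier results of these data known. Given in full were members called in the mean contrast with the same sign in both clones and an absolute log2 fold change of at least 0.5, members called between clones, and Mki67. Of the other pathway genes, up to 4 in each direction with the largest change and an average log2 CPM of at least 2 were named; 1 of them is not reported here. The library values of Gpi1, Pgam1, Eno1, P4ha1, P4ha2 and Hk2 were added after they were seen.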

Additional observations from a re-analysis of the deposited data

Results flagged for a closer look

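Several genes differed between the knockout clones by the test of clone 2 against clone 1 (edgeR quasi-likelihood, adjusted p below 0.05). Among the members these were Eno2 (log2 0.67 higher in clone 2), Ldhb (0.64) and Pdk1 (0.49). Among the other named pathway genes, Tigar was higher in clone 2 (0.71, adjusted p = 0.0308), whereas Bpgm was lower in it (−0.83, adjusted p = 0.00222). Tigar stood at 9.18 and 10.4 CPM in clone 1 and at 16.8 and 15.1 in clone 2, between clone 1 and the WT values of 21.7 and 18.9. Bpgm stood at 70.0 and 65.2 CPM in clone 1, at 40.1 and 35.7 in clone 2 and at 28.8 and 29.0 in WT. Tigar was not called between clones by DESeq2 (adjusted p = 0.0505), with thinned counts (adjusted p = 0.0886), or when clone 1 replicate 1 (0.61), clone 1 replicate 2 (0.80), clone 2 replicate 1 (0.62) or clone 2 replicate 2 (0.78) was left out. Bpgm lost its call when clone 2 replicate 2 was left out (−0.76, adjusted p = 0.0787). Eno2, Ldhb and Pdk1 were likewise not called when any 1 of the 4 clone libraries was left out. Each clone is 1 line, so these differences compare the lines.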

How the results depend on the processing

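The count of members called in the mean of both clones was 11, and it ran from 8 to 13 when 1 library was left out. In clone 1 against WT it was 11, but 17 with trends of GC content and length removed and 4 to 12 with 1 library left out, the lowest without clone 1 replicate 2. In clone 2 against WT it was 10 and ran from 4 to 12, with 4 without clone 2 replicate 2 and 5 without clone 2 replicate 1. Between clones it was 3, but 1 with no scaling beyond library totals, 0 with counts thinned to the smallest library, where 5 members had an unadjusted p below 0.05 in edgeR's test, and 0 to 4 with 1 library left out; DESeq2 called 2 and limma-voom 3. The share of all genes called in clone 1 against WT was 32.7% with trends of GC content and length removed, beside 31.7% in the main fit. Between clones it was 2.82% with no scaling, 1.99% with thinned counts, 2.89% by DESeq2 and 3.61% by limma-voom, beside 3.54%. Leaving out any library of a clone lowered the share in that clone's comparison with WT and between clones. Leaving out a WT library raised the share between clones. Fitted without its GC and length trend, Ero1l turned from 0.11 to −0.27 (adjusted p = 0.0418). Without division by exon length, the share of Pfkp fell by 4.55 percentage points in place of 2.08. The causes of these changes were not tested. With no filter on low counts the median of all genes moved to 0.15. With the replicate block, 11 members were called in the mean of both clones, beside 37.1% of all genes. In clone 1 there were 13 (beside 33.9%), in clone 2 there were 10 (beside 30.1%) and between clones 3 (beside 4.84%). Deviations of same-numbered libraries correlated at 0.24, −0.08 and −0.10, so the numbers were not taken as pairs. At this depth Epas1 and Car9 could not be tested.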
